A study of Mus musculus with 6 samples.

Results

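The respiratory chain genes are described here in the livers of mice with and without an endothelial deletion of Sting1. They were taken from a table of 21956 genes by gene symbol: the families of complex I (Nduf), complex II (Sdha to Sdhd), complex III (Uqcr), complex IV (Cox4 to Cox8) and complex V (Atp5), together with the protein-coding genes of mitochondrial DNA. This rule found 111 entries under 110 symbols, of which 98 were encoded in the nucleus and 13 in the mitochondrial genome. The nuclear entries comprised 46 of complex I, 4 of complex II, 8 of complex III, 21 of complex IV and 19 of complex V. The mitochondrial ones comprised 7 of complex I, 1 of complex III, 3 of complex IV and 2 of complex V. Of the complex I entries, 8 are assembly factors and not subunits. Ndufa4 and Ndufa4l2 were placed in complex IV, where the NDUFA4 protein is found.

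Bulk polyA RNA was sequenced from 6 livers. The knockout group held 3 Stingfl/fl Cdh5-Cre+ mice, in which Cre under the endothelial Cdh5 promoter deletes the floxed Sting1 gene, and the control group held 3 Stingfl/fl Cdh5-Cre- mice. Both groups carried the floxed alleles. They ate chow until 8 weeks of age and were then given CDAHFD, a high-fat feed with amino acids in place of protein and no choline, for 10 weeks, which induces steatohepatitis. Cre was present in the knockout group only, so that Cre itself and the deletion cannot be told apart, and there was no group on chow.

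The respiratory chain sits in the inner mitochondrial membrane. Complexes I and II pass electrons from NADH and succinate to coenzyme Q, complex III hands them to cytochrome c, and complex IV reduces oxygen. Complexes I, III and IV pump protons, and complex V, the ATP synthase, makes ATP from the gradient. Complex II is encoded wholly in the nucleus, whereas the other complexes need subunits from both genomes, which are transcribed by separate machineries. In hepatocytes, which are rich in mitochondria, the chain also oxidises the electrons that fatty acid breakdown releases.

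No respiratory chain gene passed the test between knockout and control livers. In edgeR's quasi-likelihood test with Benjamini-Hochberg adjustment over 13197 genes, 0 of the 102 members tested had an adjusted p under 0.05, and 0.0% of all genes did. At an unadjusted p under 0.05 the count was 0 of 102 members, against 10.8% of all genes. DESeq2 also called 0 members at either threshold, against 0.987% of all genes at the adjusted one. The intervals were narrow for most members: for 99 of the 102 the 95% interval of the log2 fold change lay within 1 unit of 0, that is, within a doubling or halving. Relative to the median of all genes the nuclear members lay slightly higher in knockout livers and the mitochondrial ones close to it. Knockout replicate 3 stood apart from the other livers in both genomes. Control replicate 2 was low in both genomes on the scaled counts that edgeR used. The place of the nuclear members was lower without either of these libraries.

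Total counts ran between 18528915 and 20414466 in knockout and between 16704664 and 21025461 in control libraries. Sting1 had 106, 114 and 80 counts in knockout livers, against 240, 365 and 226 in control livers (edgeR adjusted p = 0.357). The labels name liver tissue and also sinusoidal endothelial cells; the RNA was that of whole liver, since albumin (Alb) reached 85176 to 97099 TPM in knockout and 65798 to 85416 TPM in control libraries, against 24.1 to 26.6 and 20.4 to 32.1 TPM for the endothelial gene Pecam1. TPM is a level per transcript length within a library. In such tissue, fewer cells of a type and less RNA per cell cannot be told apart. The factors of TMM scaling, which adjusts library sizes so that most genes do not differ, lay between 0.922 and 0.941 for the knockout libraries, and were 1.01, 1.26 and 0.975 for the controls. They therefore raise knockout values relative to control values.

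Summed over genes, mitochondrial messenger RNAs outweighed their nuclear partners several times over. The 13 mitochondrial genes took 12.7%, 14.7% and 9.64% of all TPM in knockout replicates 1 to 3, against 14.7%, 14.2% and 13.9% in control replicates 1 to 3. Knockout replicate 3 was the lowest library, knockout replicate 1 was also below the controls, and knockout replicate 2 lay among them. The 98 nuclear entries summed to 14015, 13432 and 17149 TPM in knockout and to 15367, 14658 and 15501 TPM in control replicates 1 to 3. Here knockout replicate 3 was the highest library. The mitochondrial sum over the nuclear sum was therefore 9.09, 10.9 and 5.62 in knockout replicates 1 to 3, against 9.59, 9.70 and 8.95 in controls. Means of this ratio were 8.54 ± 2.69 in knockout and 9.41 ± 0.403 in control livers (SD, n = 3 each). Without knockout replicate 3 the knockout mean was 1.06 times the control mean, and with it 0.908 times.

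**Figure D1:**
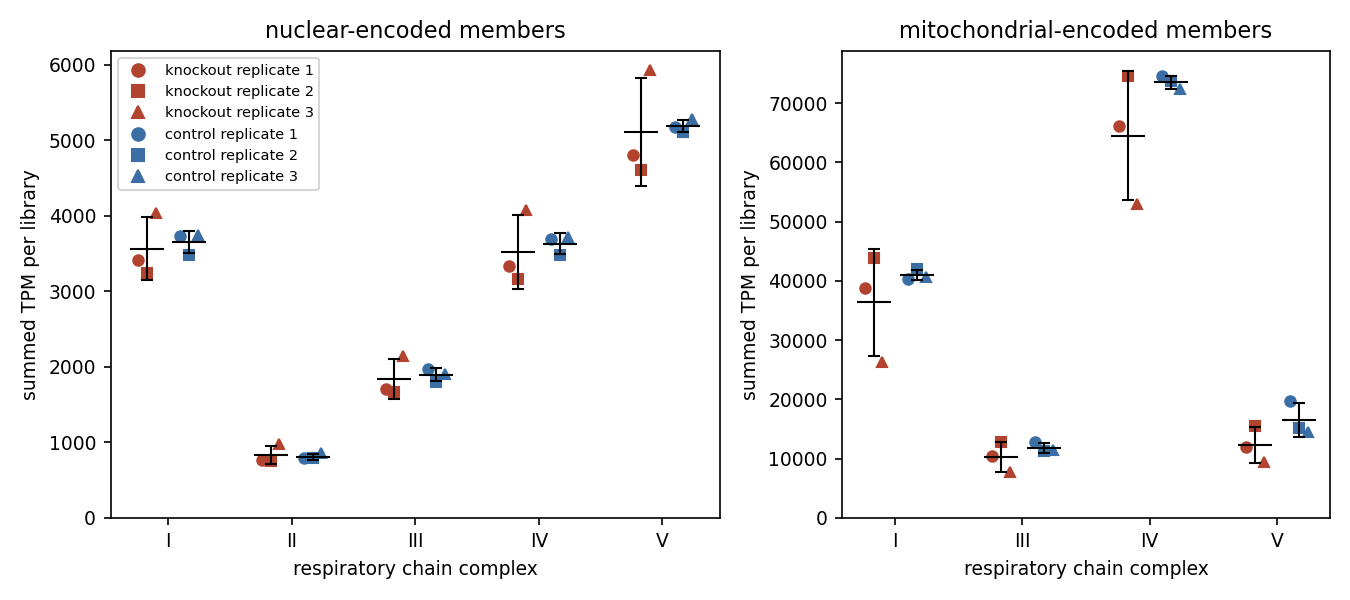
Summed TPM of the nuclear-encoded (left) and mitochondrial-encoded (right) members of each complex, with 1 point per library, knockout left of control, and bars for mean ± SD (n = 3 each). In every complex the groups overlap, and knockout replicate 3 is the highest for each nuclear sum and the lowest for each mitochondrial sum.

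By complex, nuclear-encoded TPM in knockout livers stood between 0.971 times the control mean for complexes III and IV and 1.03 times for complex II. Complex V had the largest nuclear sum, at 4799, 4598 and 5922 TPM in knockout and 5176, 5112 and 5277 TPM in control replicates 1 to 3. Complex II had the smallest, at 771, 758 and 972 TPM in knockout and 787, 790 and 857 TPM in control livers. Among the mitochondrial sums, complex IV was highest, at 66073, 74598 and 52903 TPM in knockout and 74495, 73797 and 72301 TPM in control replicates 1 to 3. The mitochondrial sum of complex V had the lowest ratio, 0.746 of the control mean, with 11972, 15479 and 9354 TPM in knockout and 19729, 15155 and 14440 TPM in control livers. The groups overlapped in each of these sums.

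Among proteins, the mitochondrial genome encodes only subunits of the respiratory chain. It is read as long transcripts from both strands, which are cut mostly at the tRNAs between the genes; mt-Atp8 with mt-Atp6, and mt-Nd4l with mt-Nd4, have none between them and stay joined on a shared message. In the annotation (GENCODE M21, GRCm38) 4 pairs of neighbours share bases on chromosome M, and these junctions bear on the counts, since a read over them belongs to both genes. They are shown 5′ to 3′ on the forward strand, with the shared bases in capitals.
mt-Atp8 and mt-Atp6 (chrM:7917-7979, 43 shared bases): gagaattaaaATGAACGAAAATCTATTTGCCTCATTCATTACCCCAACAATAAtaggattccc
mt-Atp6 and mt-Co3 (chrM:8587-8627, 1 shared base): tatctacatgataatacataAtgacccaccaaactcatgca
mt-Nd4l and mt-Nd4 (chrM:10147-10193, 7 shared bases): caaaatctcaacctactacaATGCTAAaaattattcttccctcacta
mt-Nd5 and mt-Nd6 (chrM:13532-13565, 14 shared bases, opposite strands): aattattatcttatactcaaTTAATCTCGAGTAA

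The pairs that share more than 1 base were also followed as ratios within a library. The level of mt-Atp8, a small membrane subunit of complex V, was 0.0878, 0.0989 and 0.0832 of that of mt-Atp6, which forms the proton channel with the c-ring, in knockout replicates 1 to 3, and 0.0972, 0.0754 and 0.0817 in controls. For the complex I pair, mt-Nd4l over mt-Nd4 ran from 0.148 to 0.166 in knockout and from 0.152 to 0.176 in control livers. Members of a shared message thus differed in TPM several-fold in every library. The lower value belonged to the shorter gene of each pair, mt-Atp8 (chrM:7766-7969) and mt-Nd4l (chrM:9877-10173). The effect of gene length and shared bases on these TPM values was not tested. The steadiest ratio was that of mt-Nd6 over mt-Nd5, which lie on opposite strands: it ran from 0.547 to 0.570 over the 6 libraries, whereas mt-Nd1 over mt-Nd2, which lie on the same strand, ran from 1.16 to 1.70. The libraries were strand-specific per the labels, but no source states whether reads were counted by strand. Reads of mt-Nd5 and mt-Nd6, at their shared bases or beyond them, may therefore not have been told apart.

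Levels of the mitochondrial genes spanned from mt-Atp8 to mt-Co1. mt-Co1, the catalytic subunit of complex IV, had 33620, 37762 and 27413 TPM in knockout and 35887, 36570 and 36973 TPM in control replicates 1 to 3. The other complex IV cores were lower, mt-Co2, which takes electrons from cytochrome c, at 11987 to 18244 TPM in knockout and 16393 to 18870 TPM in control livers, and mt-Co3 at 13502 to 18592 and 18357 to 20148 TPM. mt-Cytb, the only mitochondrial gene of complex III and a carrier of its hemes, had 10488, 12759 and 7735 TPM in knockout and 12717, 11264 and 11408 TPM in control livers. In complex I the order by mean TPM was mt-Nd1, mt-Nd4, mt-Nd2, mt-Nd5, mt-Nd3, mt-Nd6 and mt-Nd4l, with means over 6 libraries of 11005 TPM for mt-Nd1 and 1482 TPM for mt-Nd4l. Over the 6 libraries the ranges of neighbours in this order overlapped, except for mt-Nd2 and mt-Nd5. Within each library, though, mt-Nd4 was above mt-Nd2, mt-Nd5 above mt-Nd3, and mt-Nd6 above mt-Nd4l. The order of mt-Nd1 and mt-Nd4, and that of mt-Nd3 and mt-Nd6, varied between libraries.

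**Figure D2:**
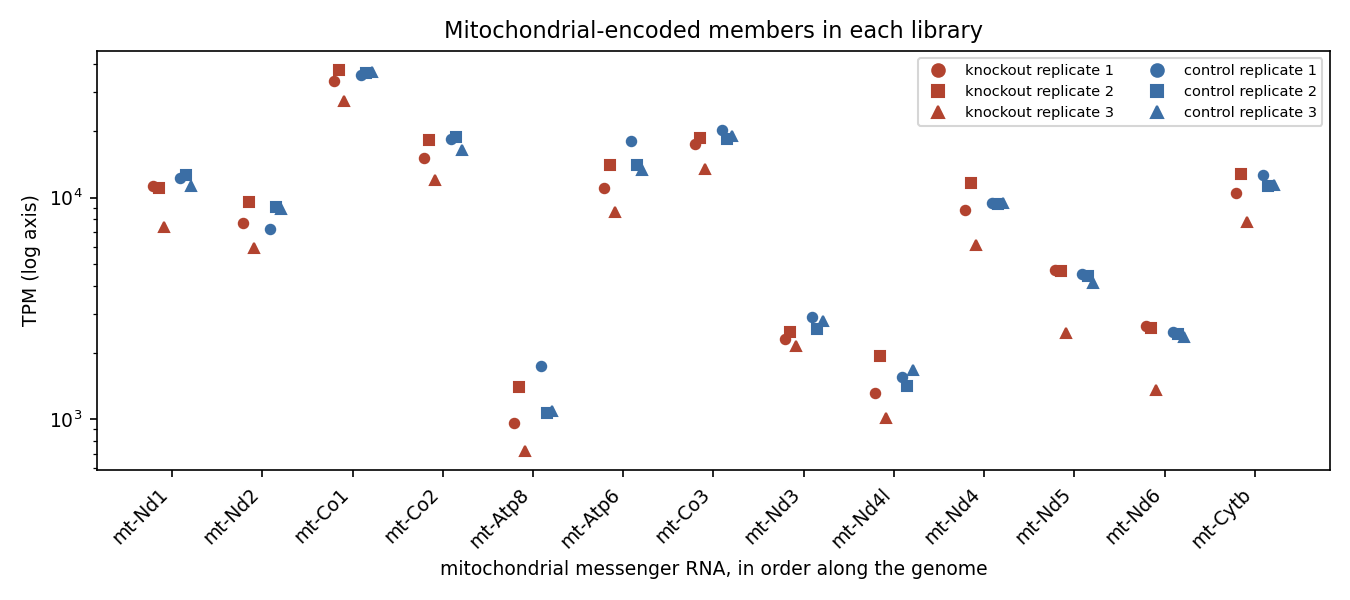
TPM of the 13 mitochondrial messenger RNAs in each library, on a log axis, in genome order, knockout left of control within each gene. Knockout replicate 3 is the lowest of the 6 libraries for every gene, and the groups overlap for every gene except mt-Nd3.

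Between the groups, the mitochondrial members had log2 fold changes from -0.21 for mt-Atp6 to 0.13 for mt-Nd4 on TMM-scaled counts. Of the 13, 8 were above 0 and 5 below, whereas 0 were above 0 with total-count scaling, where the median of all genes was -0.21; relative to all genes the median mitochondrial member lay at 0.02 with TMM and 0.05 with total counts. mt-Atp6 had 11006, 14086 and 8635 TPM in knockout and 17982, 14092 and 13349 TPM in control replicates 1 to 3 (log2 fold change -0.21, SE 0.29, edgeR adjusted p = 0.804). Relative to mt-Co1 of the same library, mt-Atp6 stood at 0.327, 0.373 and 0.315 in knockout and at 0.501, 0.385 and 0.361 in control livers, which overlapped. mt-Nd4, a proton-pumping subunit, had 8833, 11622 and 6110 TPM in knockout and 9480, 9330 and 9496 TPM in control livers (log2 fold change 0.13, SE 0.29, edgeR adjusted p = 0.878). The knockout libraries lay on both sides of the tightly grouped controls. mt-Nd3 was the only mitochondrial member whose groups did not overlap in TPM, with 2304, 2487 and 2152 TPM in knockout and 2896, 2552 and 2781 TPM in control livers. In 18.6% of all genes tested every knockout TPM was below every control TPM. On TMM-scaled counts the groups of mt-Nd3 overlapped (log2 fold change -0.03, SE 0.21, edgeR adjusted p = 0.972).

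Nuclear members of complex I had a median of 83.1 TPM over 45 tested, below the medians of 216 TPM for complex II, 225 TPM for complex III, 243 TPM for complex IV and 247 TPM for complex V. For structural subunits alone, complex I was again lowest, at 99.3 TPM. Complex IV, at 314 TPM, then stood above complex V, at 267 TPM. The highest nuclear member of complex I was Ndufb9, an accessory subunit of the membrane arm, at 171, 172 and 224 TPM in knockout and 198, 158 and 198 TPM in control replicates 1 to 3, and its groups overlapped. The 8 assembly factors were lower, with means from 6.02 TPM for Ndufaf5 to 26.0 TPM for Ndufaf1. Log2 fold changes of complex I ran from -0.18 to 0.45 with a median of 0.19 with TMM scaling, and those of the core subunits alone from 0.17 to 0.26; beside these and the values below, total counts moved the median of all genes to -0.21.

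Both ends of the complex I range were assembly factors. Ndufaf3 (chromosome 9, 108565537 to 108567434, minus strand), which acts early in the assembly of complex I, had 9.76, 5.96 and 10.9 TPM in knockout and 6.57, 7.33 and 8.03 TPM in control livers (log2 fold change 0.45, SE 0.26, edgeR adjusted p = 0.561). Knockout replicate 2 was the lowest library and the other knockout livers the highest. Ndufaf2, which joins late in assembly, had 12.0, 12.0 and 14.4 TPM in knockout and 15.2, 19.6 and 17.1 TPM in control livers (log2 fold change -0.18, SE 0.20, edgeR adjusted p = 0.752). It was the only nuclear member with every knockout TPM below every control TPM, against the same 18.6% of all genes, and the groups overlapped on TMM-scaled counts.

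Among the accessory subunits of complex I the smallest p-values belonged to Ndufa13 and Ndufb4. Ndufa13, also studied as the cell death regulator GRIM-19 and annotated over Yjefn3 on the same strand, had 57.2, 55.3 and 72.1 TPM in knockout and 59.5, 55.9 and 59.0 TPM in control livers (log2 fold change 0.31, SE 0.18, edgeR adjusted p = 0.561). Ndufb4, of the membrane arm, had 99.96, 85.1 and 110 TPM in knockout and 95.4, 84.3 and 95.3 TPM in control livers (log2 fold change 0.32, SE 0.19, edgeR adjusted p = 0.565). In both the highest library was knockout replicate 3. Ndufb5, also of the membrane arm, was the only member with every knockout value above every control value on TMM-scaled counts, at 48.7, 48.8 and 57.7 CPM, counts scaled to the library size, in knockout and 48.7, 30.6 and 48.2 CPM in control livers, against 7.25% of all genes. In 0 members was every knockout CPM below every control CPM, against 9.14% of all genes. For Ndufb5 the lowest knockout and the highest control value were close to equal, and in TPM the groups overlapped (exact two-sided permutation test of CPM, p = 0.1, the smallest that 3 against 3 allows). Ndufc1, a small membrane-arm subunit, lay at a log2 fold change of -0.002 (SE 0.23, edgeR adjusted p = 0.999).

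In complexes II and III 0 members passed the test. Sdha, the flavoprotein that oxidises succinate, had 207, 233 and 270 TPM in knockout and 183, 242 and 241 TPM in control replicates 1 to 3 (log2 fold change 0.33, SE 0.20, edgeR adjusted p = 0.573). Sdhd, a membrane anchor, had the highest mean of the complex, at 239, 217 and 302 TPM in knockout and 253, 223 and 268 TPM in control livers. All 4 subunits of complex II had log2 fold changes between 0.21 and 0.33. In complex III, Uqcrq, a small subunit, led with 372, 364 and 482 TPM in knockout and 419, 361 and 376 TPM in control livers, ahead of Uqcrb at 231, 249 and 295 TPM in knockout and 263, 263 and 283 TPM in control livers. Its 8 members had log2 fold changes from 0.04 to 0.33. In Sdha, Sdhd, Uqcrq and Uqcrb knockout replicate 3 was the highest library by TPM and the groups overlapped.

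Complex IV was made almost wholly of the ubiquitous and liver forms. Cox8a had 468, 424 and 544 TPM in knockout and 498, 505 and 471 TPM in control replicates 1 to 3, and Cox4i1 had 446, 421 and 532 TPM in knockout and 467, 512 and 488 TPM in control livers. Their tissue-restricted relatives were near or at 0. Cox4i2, the lung form, was listed at 0 in all 3 knockout livers and had 6, 5 and 0 counts in control livers. Cox6a2, the heart and muscle form, had 9, 13 and 5 counts in knockout and 6, 9 and 6 counts in control livers, which made 0.147% to 0.533% of Cox6a1 plus Cox6a2 TPM. Cox7a1, another heart and muscle form, had 1, 0 and 2 counts in knockout and 0, 1 and 3 counts in control livers, beside 157 to 211 TPM and 163 to 218 TPM of Cox7a2. Cox7b2, Cox8b and Cox8c were listed at 0 in every library, whereas Cox7b had 126 to 153 TPM in knockout and 135 to 170 TPM in control livers. Cox7a2l, which joins complexes III and IV into supercomplexes, had 138 to 171 TPM in knockout and 155 to 163 TPM in control livers.

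Cox6b2, known as a testis form of the subunit on the cytochrome c side, was the exception among the isoforms in level and in spread. It had 15.3, 6.46 and 10.9 TPM in knockout and 13.7, 4.46 and 0.560 TPM in control replicates 1 to 3, or 87, 35 and 59 counts against 78, 20 and 3. Its share of Cox6b1 plus Cox6b2 TPM ran from 2.47% to 5.69% in knockout and from 0.204% to 4.79% in control livers. The groups overlapped, and the fold change was too uncertain to give a direction (log2 0.98, 95% interval -1.01 to 2.97, edgeR adjusted p = 0.697). Ndufa4l2, a form induced by low oxygen, had 17, 6 and 16 counts in knockout and 31, 14 and 17 counts in control livers, under 1% of Ndufa4 plus Ndufa4l2 TPM in each library (log2 fold change -0.51, 95% interval -1.75 to 0.73, edgeR adjusted p = 0.743). Cox6b2, Ndufa4l2 and Ndufaf3 were the 3 members whose interval reached beyond 1 log2 unit. The other members under the low-count filter were the pseudogene Cox5b-ps, Ndufb11b and a second entry of Atp5po, which made 9 untested members, 5 of them listed at 0 in every library.

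Complex V carried the highest nuclear levels. Atp5f1b, the catalytic beta subunit, had 888, 832 and 1092 TPM in knockout and 881, 1070 and 990 TPM in control replicates 1 to 3, and Atp5f1a, the alpha subunit, had 618, 535 and 749 TPM in knockout and 611, 639 and 625 TPM in control livers. The ratio of beta to alpha was 1.44 to 1.56 in knockout and 1.44 to 1.67 in control livers. The proton-carrying c-ring is built from a protein that 3 genes encode, and their shares of the c-ring message overlapped between the groups. Atp5mc3 gave 50.5%, 48.0% and 53.0% in knockout and 52.6%, 48.4% and 51.4% in control livers, Atp5mc1 gave 29.1% to 30.5% and 28.2% to 30.4%, and Atp5mc2 gave 18.0% to 21.5% and 19.1% to 21.2%. Atp5if1, the inhibitor that stops the synthase from running backwards, had 51.5, 58.0 and 58.2 TPM in knockout and 61.8, 84.1 and 54.4 TPM in control livers (log2 fold change 0.01, edgeR adjusted p = 0.984).

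The smallest p of the whole family was that of Atp5po, the stalk subunit OSCP that holds the catalytic head (chromosome 16, 91925214 to 91931687, minus strand). It had 271, 285 and 372 TPM in knockout and 287, 267 and 292 TPM in control livers (log2 fold change 0.36, SE 0.20, 95% interval -0.10 to 0.81, edgeR adjusted p = 0.555). Knockout replicate 3 stood above the other 5 libraries, which lay close together. A second annotated gene of the same symbol overlaps this one on the same strand and was listed at 0, so that the split of reads between them was set by the authors' counting. In all, 42 of the 89 tested nuclear members overlap another annotated gene, and 34 overlap such a gene on the opposite strand.

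**Figure D3:**
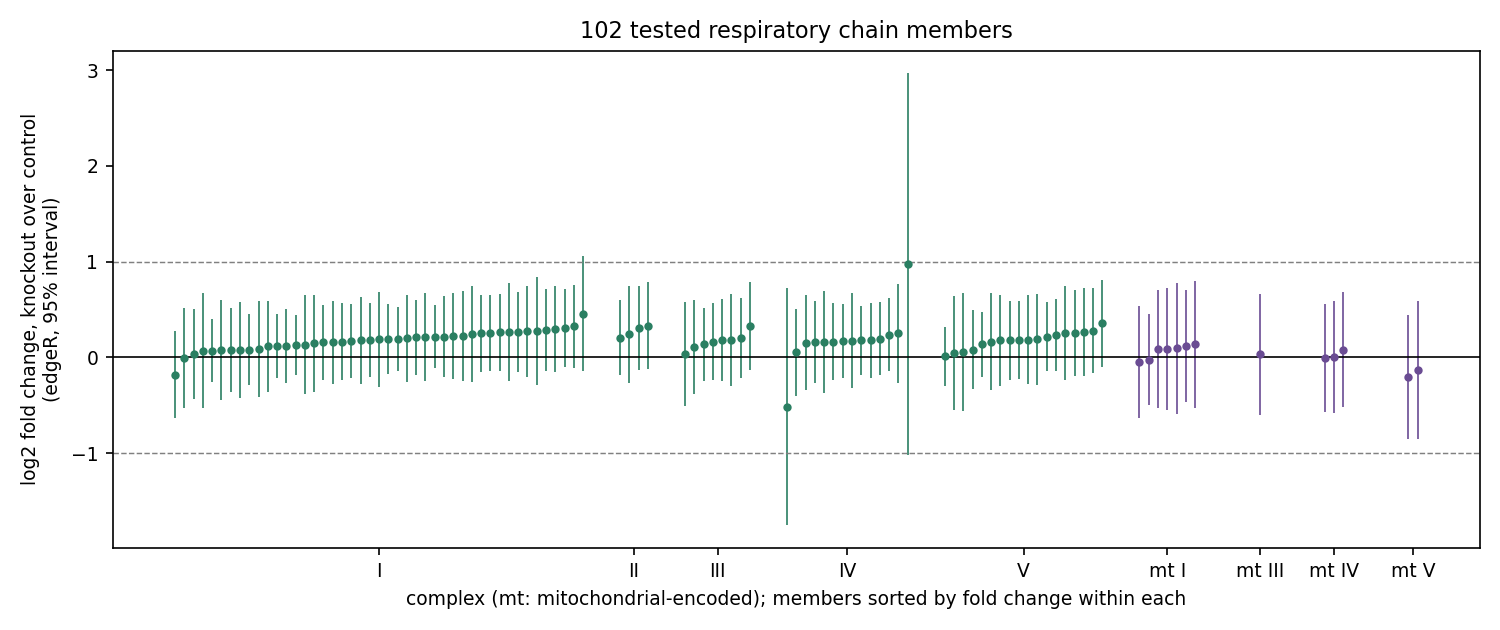
Log2 fold change of knockout over control (edgeR, TMM scaling) with its 95% interval for each of the 102 tested members, by complex and sorted by fold change within it; green is nuclear-encoded, purple mitochondrial-encoded, and dashed lines mark 1 log2 unit. All intervals include 0, 86 of 89 nuclear estimates lie above 0 with this scaling (38 of 89 with total counts, where the whole table lies lower), and the intervals of 3 members cross a dashed line.

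On TMM-scaled counts 86 of 89 nuclear members had a log2 fold change above 0, against 51.2% of all genes, but 38 of 89 did with total-count scaling and 24 of 89 on log2(TPM + 1), where the whole table lies lower. The median of all genes was 0.01 with TMM, -0.21 with total counts and -0.20 on log2(TPM + 1). Set against it, the nuclear members kept their place: 86 of 89 lay above the median of all genes with TMM and with total counts, and 85 of 89 on log2(TPM + 1), and the median nuclear member lay 0.17, 0.20 and 0.14 above it. The mitochondrial members lay around it. Above the median of all genes were 8, 8 and 4 of the 13 on these scales, and the median mitochondrial member differed from it by 0.02, 0.05 and -0.02. These members share the same 6 libraries and move together within them, so that their number adds no replicates.

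This place of the nuclear members was lower without either of 2 libraries. Knockout replicate 3 was the highest of the 6 libraries for 77 of 89 nuclear members by CPM and for 57 by TPM. Control replicate 2, the library with the TMM factor of 1.26, was the lowest for 83 by CPM and for 18 by TPM. Relative to the median of all genes the nuclear median was 0.08 without knockout replicate 3, with 71 of 89 above it, and 0.04 without control replicate 2, with 56 of 89 above it. For the mitochondrial members, knockout replicate 3 was the lowest library for 13 of 13 by TPM and for 9 of 13 by CPM. Their median was 0.20 without knockout replicate 3, -0.10 without knockout replicate 2 and -0.10 without control replicate 2. In knockout replicate 3 the genomes thus stood apart in opposite directions: its median nuclear member was 0.31 above the mean of 6 libraries in log2 CPM, and its median mitochondrial member 0.40 below (a deviation of -0.40). In control replicate 2 both were low, at -0.44 and -0.33.

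**Figure D4:**
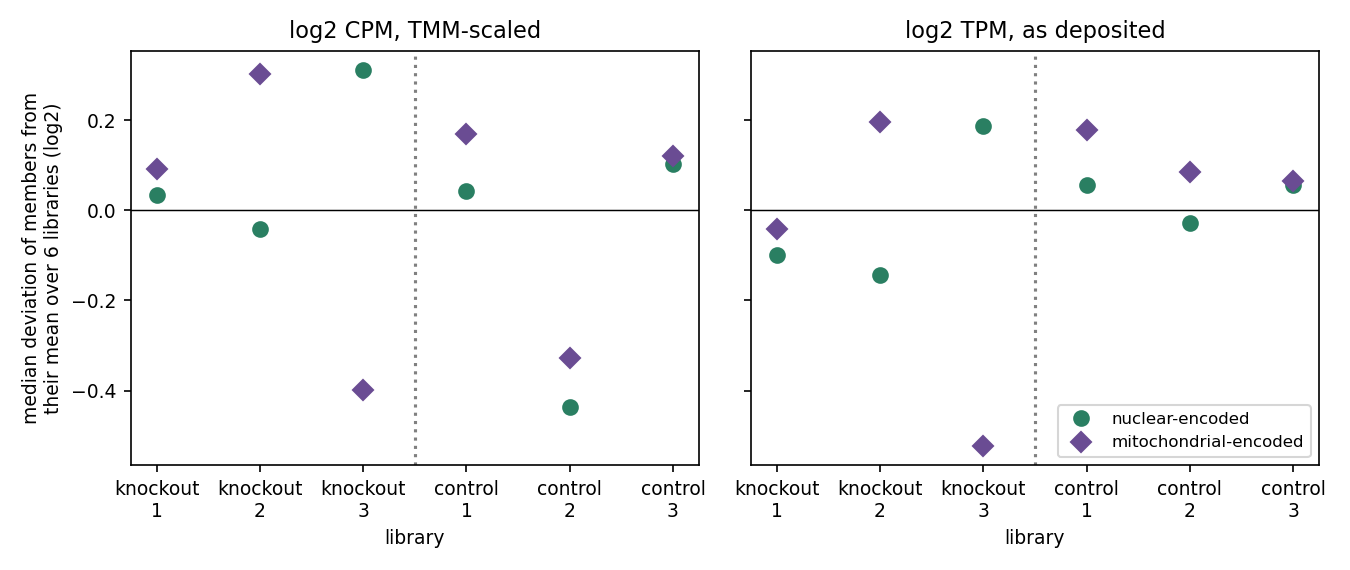
Median deviation, in log2 units, of the tested nuclear-encoded (circles) and mitochondrial-encoded (diamonds) members from their own mean over 6 libraries, in TMM-scaled CPM (left) and in TPM (right), with 1 pair of points per library. In knockout replicate 3 the nuclear median is above 0 and the mitochondrial one below on both scales, and both medians of control replicate 2 are low on the left and near 0 on the right.

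Cell type markers differed between the libraries as well. The 9 hepatocyte markers summed to 121760 to 140180 TPM in knockout and 98457 to 123210 TPM in control livers, lowest in control replicate 2, and 8 of 9 had a log2 fold change above 0, with a median of 0.42. The 6 cholangiocyte markers summed to 285 to 636 TPM in knockout and 626 to 2097 TPM in control livers, highest in control replicate 2, and 0 of 6 were above 0. Most of this sum was the single gene Spp1. It had 610, 278 and 338 TPM in knockout and 985, 1995 and 603 TPM in control replicates 1 to 3. Among the other markers 7 of 7 Kupffer cell, 5 of 5 lymphocyte, 8 of 9 endothelial and 1 of 7 stellate cell genes were above 0 with TMM scaling, against 51.2% of all genes. With total counts these were 7, 5, 5 and 0, and relative to the median of all genes 7, 5, 8 and 1 with either scaling. Per hepatocyte marker TPM, the nuclear respiratory chain stood at 0.106, 0.110 and 0.122 in knockout and at 0.127, 0.149 and 0.126 in control livers, which did not overlap. With Alb left out of the markers the ratio was 0.310, 0.367 and 0.398 in knockout and 0.385, 0.449 and 0.410 in control livers, and the groups overlapped. The 8 striated muscle markers summed to 0.812 to 2.39 TPM in knockout and 0.321 to 1.96 TPM in control livers, with 3 at 0 in every library, and the 4 adipose markers to 0.0 to 0.159 and 0.167 to 1.42 TPM, with 2 at 0. The part of cell makeup in the respiratory chain values was not tested.

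The promoters of the nuclear members were searched for motifs of factors known to serve respiratory genes. Whether such motifs bear on the values in these libraries was not tested. Promoter sequence, from 250 bases before to 50 after the annotated start, was found in RefSeq (GRCm38.p6) for 77 of the 98 nuclear entries, or 76 genes. On either strand, CGCATGCG, a core of the NRF1 site, was held by 11 of 76 (14.5%), against 2.07% of 27025 genes with a promoter. CCGGAAG, an ETS site as bound by GABPA, was held by 18 (23.7%), against 9.93%, and AAGATGGCG, a YY1 site, by 8 (10.5%), against 1.64%. Any of the 3 was held by 30 of 76 (39.5%), against 12.8%. The 27025 genes were not limited to the 13197 tested in these livers. These shares therefore do not compare the members with other genes expressed in liver. The YY1 letters include a start codon and lay mostly after the annotated start. The sequences below show upstream matches in members of complexes I to V, 5′ to 3′ on the gene's strand, with the motif in capitals on whichever strand it matched.
Ndufa11, NRF1, chr17:56717683-56717730, plus strand: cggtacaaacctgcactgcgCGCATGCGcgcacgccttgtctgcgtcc
Cox6a1, NRF1, chr5:115349092-115349139, minus strand: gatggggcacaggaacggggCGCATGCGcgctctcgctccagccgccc
Atp5mc2, NRF1, chr15:102671061-102671108, minus strand: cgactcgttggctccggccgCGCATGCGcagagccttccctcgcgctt
Sdhd, ETS, chr9:50603869-50603915, minus strand: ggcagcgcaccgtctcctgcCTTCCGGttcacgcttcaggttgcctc
Uqcr11, ETS, chr10:80406861-80406907, minus strand: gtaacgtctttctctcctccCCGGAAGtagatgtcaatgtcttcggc
Atp5pf, ETS, chr16:84835011-84835057, minus strand: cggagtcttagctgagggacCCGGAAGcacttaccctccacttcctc
Atp5pf, YY1, chr16:84835036-84835084, minus strand: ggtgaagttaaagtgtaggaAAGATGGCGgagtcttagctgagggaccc
Atp5pf, a subunit of the peripheral stalk, held all 3 motifs upstream. This gene overlaps Gabpa itself on the opposite strand by 701 bases. Which of these 2 genes the motifs serve was not tested. A match is a description of the letters and not of binding.

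The regulators that are known to drive these promoters did not pass the test either; the smallest p-values among them belonged to the coactivators. Ppargc1a (PGC-1alpha), a coactivator of mitochondrial biogenesis, had 4.48, 2.57 and 5.03 TPM in knockout and 8.40, 9.64 and 7.64 TPM in control livers (log2 fold change -0.79, SE 0.28, edgeR adjusted p = 0.392). Every knockout value was below every control value in TPM, as in 18.6% of all genes, and on TMM-scaled counts, as in 9.14%. Ppargc1b, a relative of Ppargc1a, had 2.5, 1.83 and 1.87 TPM in knockout and 1.27, 2.04 and 1.15 TPM in control livers (log2 fold change 0.74, SE 0.26, edgeR adjusted p = 0.389). The groups of Ppargc1b overlapped in TPM but not on TMM-scaled counts. There every knockout value was above every control value, as in 7.25% of all genes. Of the 12 biogenesis regulators 4 lay above the median of all genes with either scaling, and their median was -0.10 relative to it with both. Nrf1 itself had a log2 fold change of -0.13 (SE 0.17), Gabpa of -0.21 (SE 0.12) and Yy1 of -0.08 (SE 0.12).

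Machinery that expresses mitochondrial DNA was mixed: 13 of 20 genes lay above the median of all genes with either scaling, and the list's median was 0.07 above it with both. Fastkd1, which acts on mitochondrial RNA, had 8.30, 8.67 and 12.5 TPM in knockout and 7.34, 9.91 and 7.26 TPM in control livers (log2 fold change 0.51, SE 0.18, edgeR adjusted p = 0.394), and Mterf4, needed for the mitochondrial ribosome, had a log2 fold change of 0.36 (SE 0.17, edgeR adjusted p = 0.477). Tfam packages mitochondrial DNA and serves its transcription. In knockout replicate 3, where the mitochondrial messages were lowest, it stood at 38.6 TPM. That was between the 34.7 and 50.8 TPM of the other knockout livers and below the 41.7 to 47.0 TPM of the controls. On TMM-scaled counts Tfam in that library was not below the controls (log2 fold change between the groups 0.08, SE 0.15, edgeR adjusted p = 0.846). The RNA polymerase Polrmt had 7.19, 7.65 and 8.17 TPM in knockout and 7.80, 9.99 and 7.74 TPM in control replicates 1 to 3.

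In the lists of genes around the chain 0 genes passed the test. Of 47 tested assembly factors outside the families above, 45 lay above the median of all genes with TMM scaling and 45 with total counts, and their median was 0.17 and 0.19 above it. Coa6, a copper-handling factor for complex IV, had 48.3, 46.4 and 51.6 TPM in knockout and 42.1, 33.7 and 41.2 TPM in control livers, with no overlap (log2 fold change 0.53, SE 0.21, edgeR adjusted p = 0.425). In 1.38% of all genes every knockout TPM was above every control TPM. Timmdc1, an assembly factor of complex I, followed at 0.30 (SE 0.13, edgeR adjusted p = 0.447). In the citrate cycle 16 of 17 lay above it with either scaling, with medians 0.13 and 0.15 above it, and the smallest p was that of fumarase (Fh1, log2 fold change 0.40, SE 0.22, edgeR adjusted p = 0.536).

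The carriers between the complexes had fold changes in the same range. Cyc1, the heme subunit of complex III named outside the Uqcr family, had 114, 98.2 and 143 TPM in knockout and 121, 119 and 112 TPM in control livers (log2 fold change 0.24, SE 0.18). Cytochrome c (Cycs) had 77.0, 74.1 and 76.7 TPM in knockout and 78.3, 85.9 and 80.1 TPM in control livers. Every knockout TPM of Cycs was thus below every control TPM, as in 18.6% of all genes. On TMM-scaled counts its log2 fold change was above 0 (0.14, SE 0.14). Coenzyme Q synthesis had 9 of 13 above the median of all genes with either scaling, and the smallest p-values belonged to Coq5 (log2 fold change 0.24) and Coq9 (0.23). The other enzymes that feed coenzyme Q had 6 of 7 above it with TMM and 7 with total counts, and the smallest p-values belonged to the electron transfer flavoprotein Etfb (0.32) and the sulfide oxidase Sqor (0.24). Among the nucleotide and phosphate carriers, uncoupling proteins and outer membrane channels, taken as 1 list, 6 of 7 tested lay above it with either scaling. The exception was Slc25a4, the ADP/ATP carrier typical of heart and muscle, at 15.9, 12.3 and 10.3 TPM in knockout and 17.9, 26.1 and 15.2 TPM in control livers (log2 fold change -0.34, SE 0.19, edgeR adjusted p = 0.545); next by p came the outer membrane channel Vdac1 (0.18). Cristae organisers had 6 of 8 above it with TMM scaling and 7 with total counts, with Immt at 0.16 and Chchd3 at 0.14.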

How the data were processed

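The authors deposited 1 table with an estimated count and a TPM value per gene and library. The build was GRCm38 (mm10); RSEM 1.3.3, HISAT2 2.2.1, DESeq2 1.38.3 and fastp 0.23.2 are named, without their roles, per the submitters' processing notes. The annotation and the strand setting are not stated. The deposited TPM values are scaled to transcript length and a fixed total. The deposited estimated counts are not normalized, and 6.93% were not whole; they were rounded.

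All 3 knockout and 3 control libraries were fitted in edgeR 4.0.16 (TMM, filterByExpr, quasi-likelihood, Benjamini-Hochberg at 0.05), which left 13197 genes; the fits were tested on simulated data. Total counts of 16704664 to 21025461 per library set the precision. SEs and 95% intervals derive from the F statistic. Log2 fold changes are knockout over control. Alternatives were DESeq2 1.42.0, limma-voom (limma 3.58.1), other scalings and filters, TPM, a replicate block, and each library left out. Libraries are separate animals per the labels; none repeated another. R 4.3.3 and Python 3.11.15 were used.

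Members and gene lists were chosen with earlier results of these data known. Named are the 13 mitochondrial genes, up to 5 nuclear members with the smallest p in each direction, the 2 highest nuclear subunits of each complex, the isoform sets, all members under the filter and the 2 genes of each list with the smallest p. Ndufb5, Ndufaf1, Ndufaf5, the c-ring genes, Tfam, Polrmt, Nrf1, Gabpa and Yy1 were added after their values were seen, and the motif search names its own examples. Some genes that this rule would name are not reported here.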

Additional observations from a re-analysis of the deposited data

How the results depend on the processing

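The count of members past an adjusted p of 0.05 was 0 under edgeR, DESeq2, limma-voom, every scaling, filter and TPM setting, and with each library left out. The medians of both genomes moved by less than the spread between replicates (SD 0.25 nuclear, 0.32 mitochondrial, log2), and nuclear medians ran from -0.06 on log2(TPM + 0.1) to 0.20 in DESeq2, and with a library left out from 0.06 to 0.28. The median of all genes moved along, to -0.22 on log2(TPM + 0.1), so that relative to it the nuclear median lay at 0.16 there and 0.17 in DESeq2. With a library left out the mitochondrial median ran from -0.10 to 0.20, the nuclear summed TPM ratio of knockout over control from 0.904 to 1.03, and the mitochondrial one from 0.784 to 0.960. Rescaling TPM without mitochondrial transcripts, added after the data were seen, gave 0.956 for the nuclear sum. Single members were compared relative to the median of all genes. Ndufc1, at -0.01 by that measure, turned to 0.0112 with total counts and 0.00686 with no low-count filter, and ran from -0.17 to 0.17 with a library left out. mt-Nd4 ran from -0.10 to 0.34 in that way; the cause was not tested.

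With the replicate block the nuclear median was 0.19, the mitochondrial 0.02, and 0 members were called, beside 5 genes in the whole table. Deviations of same-numbered libraries correlated at 0.115, -0.00678 and 0.133, so the numbers were not taken to pair the mice. Across all genes DESeq2 called 130 and edgeR 0. Counts limit Cox6b2, Ndufa4l2 and the untested isoforms most. A p that misses the threshold does not show that levels were equal: for the 77 tested nuclear structural subunits, intervals still allowed log2 differences of -0.56 to 0.84.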
